A study of Mus musculus with 30 samples.

Results

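In HPCLSK, a mouse haematopoietic stem and progenitor cell line, RNA of cells transduced with a vector for STAT3 Y640F was compared with RNA of cells transduced with a vector for wild-type STAT3. The members are the 3 RNA libraries labelled HPCLSK with STAT3 Y640F and the 3 labelled HPCLSK with STAT3, chosen by their titles out of 18 RNA libraries in a series of 30 samples. They are described over the 12552 of 50686 listed genes that passed a filter on low counts. A further 3 libraries, from HPCLSK cells with empty vector, give the background. All 9 came from untreated cells labelled strain C57BL/6N, grown on agarose-coated plates in Iscove's medium that held serum, 2-mercaptoethanol, antibiotics and the cytokine SCF (stem cell factor). Every group carries a retroviral vector, and the wild-type STAT3 vector is the reference for the changed residue. The series text describes the 3 libraries of each group as technical replicates, so errors and p-values reflect how repeat libraries vary and say nothing of separate transductions. Whether a group is a pool of transduced cells or 1 clone is not stated in the sources used here.

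STAT3 is a transcription factor that cytokine receptors switch on. Receptors built around gp130, such as those for interleukin 6, oncostatin M and leukaemia inhibitory factor, activate Janus kinases, which phosphorylate STAT3 on a tyrosine. Phosphorylated molecules pair through their SH2 domains, enter the nucleus and bind DNA at paired TTC and GAA elements. Among the genes they switch on are those of inhibitors such as SOCS3, which close the loop. Y640F replaces a tyrosine of the SH2 domain with phenylalanine and is known as an activating change of lymphoid malignancies. In the bone marrow STAT3 is best known downstream of the granulocyte colony-stimulating factor receptor and in inflammation.

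The Y640F libraries held 16228427, 16039935 and 21398768 counts and the STAT3 libraries 12297501, 20996915 and 9537258, so that 3 counts in a library corresponded to 0.14 to 0.187 CPM with Y640F and 0.143 to 0.315 CPM with STAT3. CPM, the scale of all levels here, are counts divided by the TMM-adjusted library size. Y640F replicate 1 stood apart from its group: the chi-square of its counts against those of Y640F replicates 2 and 3, divided by the degrees of freedom, was 21.2 and 27, while replicates 2 and 3 gave 3.3 against each other. Empty vector replicate 1 also stood apart, at 10.6 and 8.06 against empty vector replicates 2 and 3, which gave 2.49 against each other. Counts of list members that moved by more than 1.5 times without Y640F replicate 1 are given without it as well. Over the 9 HPCLSK libraries, the first principal component held 72% of the variance, with the Y640F libraries at −81.8, −64.3 and −64.5 and the STAT3 libraries at 23.7, 21.7 and 33. All 10 progenitor markers looked up passed the filter. Ptprc, the pan-leukocyte phosphatase CD45, had 697, 497 and 497 CPM in the Y640F libraries, against 393, 402 and 397 CPM in the STAT3 libraries. Lmo2, a stem cell transcription co-factor, had 210.2, 299 and 269 CPM in the Y640F libraries, against 246, 260.3 and 255 CPM in the STAT3 libraries. Flt3 and Lmo2 were not called and overlapped between the groups. Kit was called lower and Ly6a and Spi1 higher, as given with their lists. At log2 fold changes of −0.89 ± 0.09 for Cd34, −0.58 ± 0.13 for Tal1, −0.56 ± 0.12 for Myb and −0.51 ± 0.19 for Gata2, 4 markers were lower by less than the fold minimum (adjusted p from 1.63e-05 to 0.0436).

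Stat3 RNA was not matched between the groups. Stat3 (chromosome 11, 100885098 to 100939540 of GRCm38) had 1839.7, 1877 and 1928 CPM in the Y640F libraries, against 593, 549 and 632 CPM in the STAT3 libraries and 359, 335 and 352 CPM in the empty vector libraries. All Y640F libraries lay above all STAT3 libraries (log2 fold change 1.67 ± 0.06, adjusted p = 5.51e-08). The counts do not tell vector RNA from the cell's own transcript, and the residue and the amount of Stat3 RNA therefore cannot be told apart in any difference below.

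Y640F and STAT3 cells differed at 1783 of 12552 genes (14.2%) with edgeR's quasi-likelihood test, a gene being called at a Benjamini-Hochberg adjusted p under 0.05 over all tested genes and a fold of at least 2. Of these, 1018 (8.11%) were higher with Y640F and 765 (6.09%) lower, while the median log2 fold change of all tested genes was 0.01. The shares of 8.11% and 6.09% are the background for every count of called list members below. Among larger changes the calls leaned further upward: 465 genes were higher and 219 lower by at least 4-fold, 245 higher and 97 lower by at least 8-fold, 121 higher and 51 lower by at least 16-fold, and 62 higher and 27 lower by at least 32-fold. The lean was steepest at 8-fold. The lean also depended on level, since 266 genes were higher and 90 lower among 5272 genes whose larger group mean was at least 50 CPM, against 288 higher and 309 lower among 1819 genes at 1 to 5 CPM. At 61.6% of tested genes the 3 Y640F libraries did not overlap the 3 STAT3 libraries, which is the background for every statement below that groups did not overlap. With library totals in place of TMM scaling, 916 genes were higher and 897 lower and the median of all genes moved to −0.09, so the balance of directions depended on scaling.

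**Figure D1:**
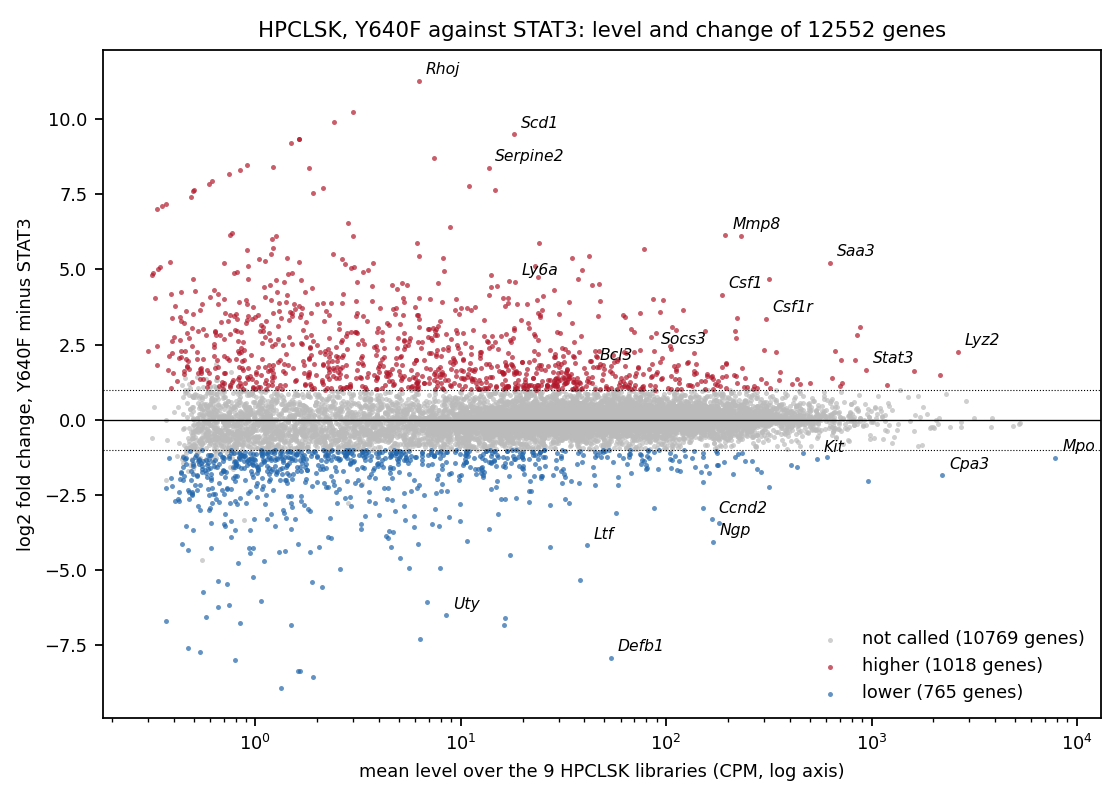
Log2 fold change of Y640F minus STAT3 (vertical axis) against the mean level over the 9 HPCLSK libraries in CPM (horizontal log axis) for 12552 genes, with 1018 called higher in red, 765 called lower in blue and the rest in grey; dotted lines mark a fold of 2. Calls above 4-fold are more frequent upward, and the points on slanting lines at the upper and lower left are genes at or near 0 in 1 group, whose fitted fold change depends on the prior count.

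Genes that cytokines are known to induce through STAT3 were mostly higher in Y640F cells. Of the list of STAT3 and cytokine-response targets, 22 of 38 tested members (57.9%) were called higher and 1 (2.63%) lower. These shares compare with 8.11% and 6.09% of all tested genes. The median log2 fold change of the list was 1.30, against 0.01 over all tested genes. Socs3, the feedback inhibitor of gp130 and granulocyte colony-stimulating factor receptors, had 180.1, 183 and 218 CPM in the Y640F libraries, against 34.9, 43.5 and 40.8 CPM in the STAT3 libraries. Socs3 was higher in each Y640F library than in any STAT3 library (log2 fold change 2.28 ± 0.14, adjusted p = 7.68e-07). Bcl3, a nuclear partner of the NF-kB subunits p50 and p52, had 91.7, 85.7 and 82.4 CPM in the Y640F libraries, against 24.9, 28.6 and 23 CPM in the STAT3 libraries. Bcl3 values were higher in all 3 Y640F libraries (log2 fold change 1.75 ± 0.10, adjusted p = 6.68e-07). Saa3, an acute-phase serum amyloid gene, had 2884, 1435 and 1148 CPM in the Y640F libraries, against 29.3, 102 and 7.54 CPM in the STAT3 libraries. It rose in every Y640F library but was uneven within both groups (log2 fold change 5.22 ± 0.73, adjusted p = 0.000164). Prdm1, which encodes the repressor BLIMP-1, had 5.73, 2.65 and 2.37 CPM in the Y640F libraries, against 0, 0.329 and 0.102 CPM in the STAT3 libraries. Prdm1 was higher in each Y640F library than in any STAT3 library, and replicate 1 was the highest of them (log2 fold change 4.24 ± 0.63, adjusted p = 0.000258). The transglutaminase gene Tgm2 (log2 fold change 3.32 ± 0.32), the interleukin 1 receptor gene Il1r1 (log2 fold change 2.99 ± 0.15) and the interleukin 4 receptor gene Il4ra (log2 fold change 2.96 ± 0.11) were also higher.

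Other classical targets did not pass the fold minimum or fell. The survival kinase gene Pim1 had 381, 483 and 529.7 CPM in the Y640F libraries, against 284, 298 and 284 CPM in the STAT3 libraries. Its libraries did not overlap, but the difference stayed under the fold minimum (log2 fold change 0.69 ± 0.11, adjusted p = 0.000462). Cish, a feedback inhibitor best known as a STAT5 target, had 3.47, 4.21 and 3.24 CPM in the Y640F libraries, against 4.58, 5.21 and 4.58 CPM in the STAT3 libraries. It was slightly lower with Y640F and was not called (log2 fold change −0.41 ± 0.15, adjusted p = 0.036). Ccnd2, the cyclin D2 gene, was the 1 listed target called lower, and the fall was large. It had 17.1, 30.9 and 23.6 CPM in the Y640F libraries, against 243, 238 and 232 CPM in the STAT3 libraries, without overlap (log2 fold change −3.31 ± 0.15, adjusted p = 1.27e-07).

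**Figure D2:**
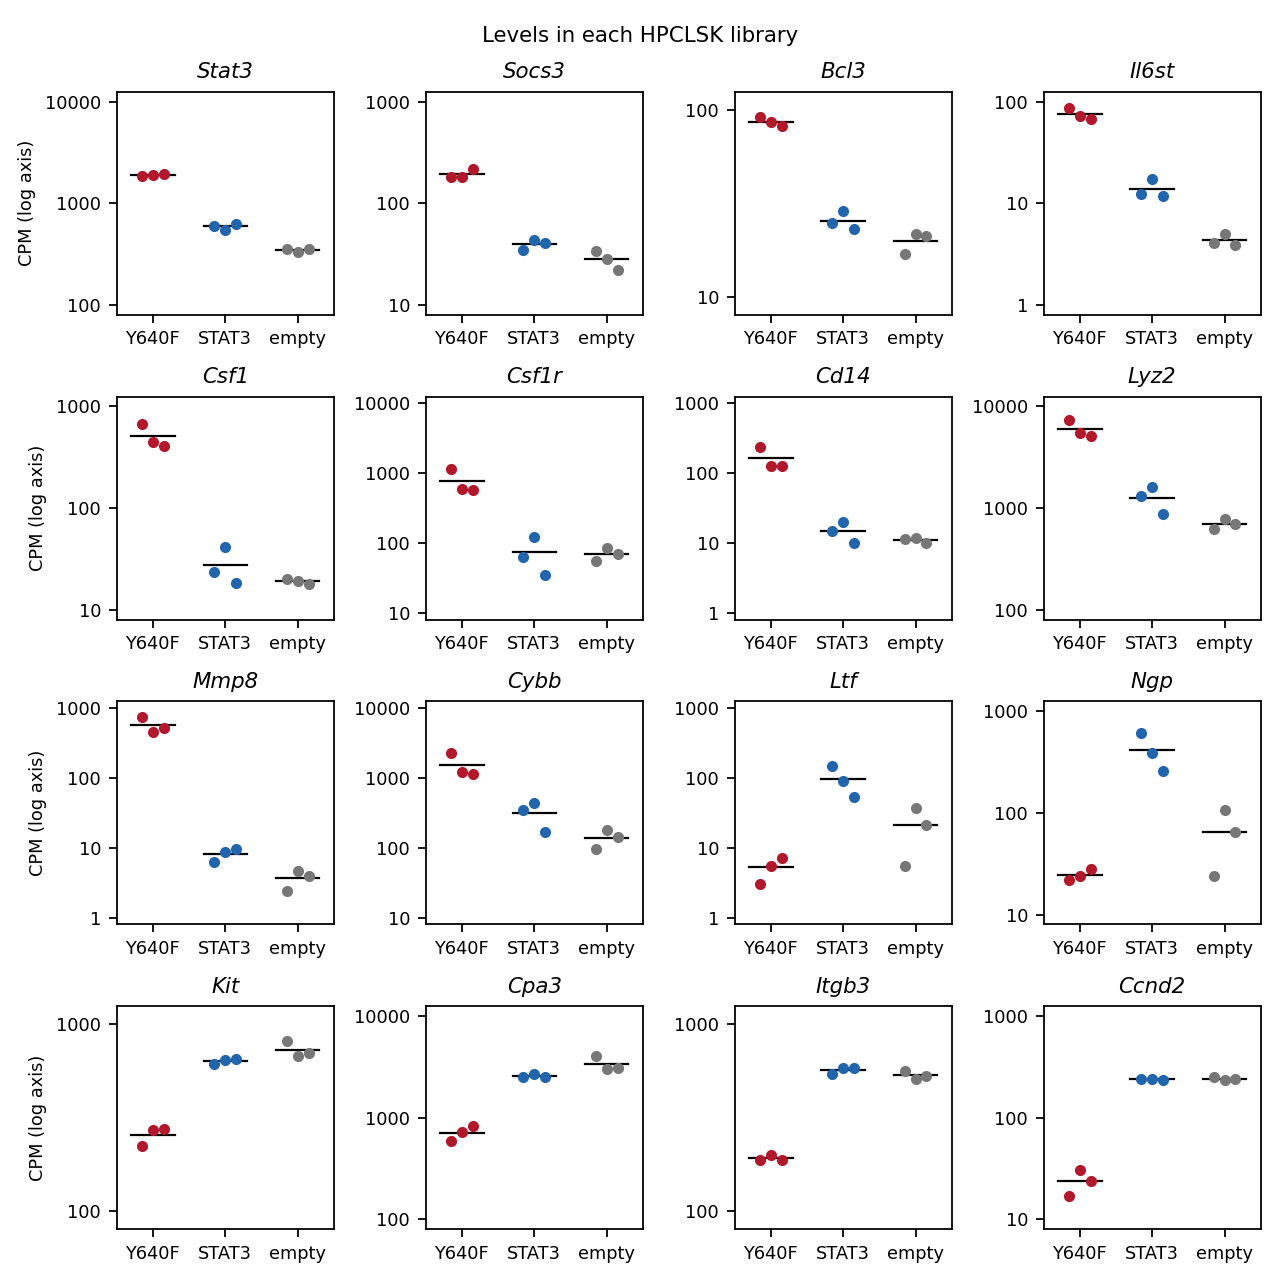
Level in CPM (log axis) of 16 genes in each HPCLSK library, with Y640F left, STAT3 in the middle and empty vector right; points are libraries and bars group means of 3. Stat3, Socs3, Bcl3, Il6st, Csf1, Csf1r, Cd14, Lyz2, Mmp8 and Cybb lie highest with Y640F, while Ltf, Ngp, Kit, Cpa3, Itgb3 and Ccnd2 have their lowest means with Y640F.

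In the JAK-STAT machinery itself most genes stayed within 2-fold. Of the kinases, inhibitors and STATs other than Stat3, 4 of 29 tested members were called higher and 1 lower (13.8% and 3.45%, against 8.11% and 6.09% of all tested genes; median 0.14). Besides Socs3, those called higher were Socs1 (log2 fold change 1.05 ± 0.32) and the phosphatase genes Ptpn1 (log2 fold change 1.17 ± 0.11) and Ptpn6, which encodes SHP-1 (log2 fold change 1.19 ± 0.07). Without Y640F replicate 1 the count called higher was 2. Socs2, a feedback inhibitor of growth hormone and STAT5 signalling, was the member called lower, with 0.267, 0.194 and 0.242 CPM in the Y640F libraries, against 3.13, 5.21 and 5.3 CPM in the STAT3 libraries. Socs2 was lower in all Y640F libraries (log2 fold change −4.24 ± 0.33, adjusted p = 3.75e-06). The kinases differed by less than 2-fold, at log2 fold changes of −0.25 for Jak1, 0.38 for Jak2, 0.39 for Jak3 and −0.07 for Tyk2, none called. Among the STATs, Stat6 (0.90 ± 0.07) was the highest after Stat3, and Stat4 (−0.50 ± 0.05), Stat5a (−0.44 ± 0.08) and Stat5b (−0.22 ± 0.06) the lowest, all under a fold of 2.

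The receptors upstream of STAT3 differed more. Among gp130 family receptors and cytokines, 8 of 12 tested members (66.7%) were called higher and 0 lower (median 1.18). Of all tested genes 8.11% were higher and 6.09% lower. Il6st, the gene of gp130, had 85.6, 71.6 and 67 CPM in the Y640F libraries, against 12.5, 17.2 and 11.9 CPM in the STAT3 libraries. Its Y640F libraries were each several times as high as any STAT3 library (log2 fold change 2.40 ± 0.15, adjusted p = 8.17e-07). The mean with empty vector was 4.35 CPM. Osmr, the oncostatin M receptor chain, had 108 counts over the Y640F libraries, 0 over the STAT3 libraries and 0 with empty vector. Against a floor of 3 counts over the STAT3 group it was at least 30.7-fold higher. Lifr, the leukaemia inhibitory factor receptor, had 2.07, 1.68 and 1.74 CPM in the Y640F libraries, against 0.0804, 0.047 and 0.204 CPM in the STAT3 libraries. It was low in both groups but without overlap (log2 fold change 4.19 ± 0.43, adjusted p = 2.28e-05). The cytokine genes Osm (log2 fold change 1.43 ± 0.17), Ebi3 (log2 fold change 1.30 ± 0.21), Clcf1 (log2 fold change 1.24 ± 0.17) and Il27 (log2 fold change 1.01 ± 0.24) and the receptor gene Il27ra (log2 fold change 1.13 ± 0.18) completed the called members. Il6ra had 240.4, 193 and 189 CPM in the Y640F libraries, against 200.4, 195 and 191 CPM in the STAT3 libraries, overlapping and not called (log2 fold change 0.08 ± 0.13, adjusted p = 0.6). Il6 itself had 3.6, 2.59 and 3.44 CPM in the Y640F libraries, against 7.39, 5.49 and 5.5 CPM in the STAT3 libraries. It was under the fold minimum (log2 fold change −0.92 ± 0.17, adjusted p = 0.00116). The count of members called lower was 1 in place of 0 when Y640F replicate 1, STAT3 replicate 2 or STAT3 replicate 3 was left out.

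Other cytokine receptors moved in both directions, 9 of 28 higher and 5 lower (median 0.41). These are 32.1% and 17.9%, against 8.11% and 6.09% of all tested genes. The largest rise was of Il13ra1, an interleukin 13 receptor chain, with 14.6, 8.22 and 9.01 CPM in the Y640F libraries, against 0.161, 0.141 and 0.713 CPM in the STAT3 libraries. No STAT3 library had as much Il13ra1 RNA as any Y640F library (log2 fold change 5.20 ± 0.44, adjusted p = 6.32e-06). Csf1r, the macrophage colony-stimulating factor receptor, had 1144, 603 and 580.2 CPM in the Y640F libraries, against 63.3, 123 and 34.4 CPM in the STAT3 libraries. All Y640F libraries were well above all STAT3 libraries, and replicate 1 was the highest (log2 fold change 3.37 ± 0.41, adjusted p = 7e-05). Il7r, the interleukin 7 receptor chain, had 16, 5.31 and 6.05 CPM in the Y640F libraries, against 2.41, 1.13 and 1.73 CPM in the STAT3 libraries. Il7r was higher in all Y640F libraries, and replicate 1 was the highest of them (log2 fold change 2.42 ± 0.45, adjusted p = 0.00111). Csf2ra and the paired genes Csf2rb and Csf2rb2, the chains of the granulocyte-macrophage colony-stimulating factor and interleukin 3 receptors, were called higher at log2 fold changes of 1.75, 1.39 and 1.37. Csf2rb and Csf2rb2 are near-identical copies, so reads may be split between them uncertainly, and all 3 were named after their values were seen. Among receptors that fell, Il18r1 (log2 fold change −2.02 ± 0.27) belongs to the interleukin 18 receptor. Il5ra, Il18rap and Kit were also among the 5 called lower.

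Promoter sequences are shown for 4 called genes to let the STAT-like letters be seen beside the values: Socs3 and Bcl6 among the targets called higher, Icam1 as a gene of both the target and the NF-kB lists, and Nkg7 as a gene called lower that holds the same letters. Each is the 250 bases before a RefSeq start site (GRCm38.p6), 5′ to 3′ on the gene's strand, with every match to TTCNNNGAA in capitals. That motif reads the same on both strands, and it contains TTCCNGGAA.
Socs3, chr11:117969367-117969616, minus strand: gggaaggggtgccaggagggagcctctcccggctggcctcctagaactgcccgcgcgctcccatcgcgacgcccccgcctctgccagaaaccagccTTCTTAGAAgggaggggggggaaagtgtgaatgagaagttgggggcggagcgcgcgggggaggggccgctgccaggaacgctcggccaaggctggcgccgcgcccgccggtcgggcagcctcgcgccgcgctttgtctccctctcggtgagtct
Bcl6, chr16:23981284-23981533, minus strand: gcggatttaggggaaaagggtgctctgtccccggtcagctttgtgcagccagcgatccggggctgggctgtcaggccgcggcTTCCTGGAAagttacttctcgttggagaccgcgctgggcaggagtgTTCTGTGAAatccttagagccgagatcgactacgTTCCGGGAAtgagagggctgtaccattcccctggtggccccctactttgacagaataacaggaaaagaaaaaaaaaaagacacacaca
Icam1, chr9:21015690-21015939, plus strand: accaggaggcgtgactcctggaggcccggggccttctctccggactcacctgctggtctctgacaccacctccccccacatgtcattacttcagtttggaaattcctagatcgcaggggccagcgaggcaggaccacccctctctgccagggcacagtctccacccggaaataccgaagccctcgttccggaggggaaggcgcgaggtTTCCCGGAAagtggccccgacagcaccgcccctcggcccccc
Nkg7, chr7:43436888-43437137, plus strand: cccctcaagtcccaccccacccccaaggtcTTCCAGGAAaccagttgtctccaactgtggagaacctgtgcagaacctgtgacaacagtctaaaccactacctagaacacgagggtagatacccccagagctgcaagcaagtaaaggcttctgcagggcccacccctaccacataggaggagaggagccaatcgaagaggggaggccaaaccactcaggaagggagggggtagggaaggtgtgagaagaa
The Socs3 match begins 154 bases before the start site and the Icam1 match 42 bases before it. The Bcl6 stretch holds 3 matches, 2 of them TTCCNGGAA, and Bcl6, a transcriptional repressor, had 73.8, 60.3 and 62.5 CPM in the Y640F libraries, against 22.7, 18.1 and 20.3 CPM in the STAT3 libraries. Bcl6 was higher in each Y640F library than in any STAT3 library (log2 fold change 1.69 ± 0.13, adjusted p = 2.8e-06). Icam1, an adhesion molecule, had 128, 76.1 and 75.3 CPM in the Y640F libraries, against 26.6, 37.5 and 28.8 CPM in the STAT3 libraries. Icam1 values were higher in all 3 Y640F libraries (log2 fold change 1.57 ± 0.20, adjusted p = 0.000103). Nkg7, a cytotoxic granule membrane protein, has its match 220 bases before the start site and had 13.1, 29.6 and 31.4 CPM in the Y640F libraries, against 289, 261 and 267 CPM in the STAT3 libraries. Nkg7 was lower in each Y640F library than in any STAT3 library, and replicate 1 was the lowest of them (log2 fold change −3.45 ± 0.23, adjusted p = 1.36e-06). Over RefSeq windows of 300 bases (250 before and 50 after each start site), TTCNNNGAA was found for 10.95% of 758 genes called higher with a window in the table, 8.02% of 499 called lower and 8.38% of all 9387 tested genes with one, and among all 32851 windows the share was 8.3%. The stricter TTCCNGGAA was found for 1.98%, 1% and 1.54% in the same order, and for 1.15% of all windows. Of 192 genes called higher by at least 8-fold with a window, 8.85% had TTCNNNGAA and 1.56% TTCCNGGAA, near the shares of all tested genes. GAAANNGAA, the core of the interferon response element, was searched on both strands and can share bases with a STAT match. It was found for 12.5% of genes called higher, 7.01% of those called lower and 8.7% of all tested genes, and in 8.56% of all windows. Among the genes called higher by at least 8-fold the share was 12%. A match is a run of letters in a short window and no proof of binding.

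NF-kB is a family of inflammatory transcription factors whose target genes include its own subunits and inhibitors. Of 26 tested members 18 were called higher and 0 lower (median 1.57). At the adjusted p alone, which 53.8% of all tested genes passed in either direction, 25 were higher. The largest rise was of Traf1, a signalling adaptor, with 7.07, 2.72 and 2.71 CPM in the Y640F libraries, against 0.161, 0.0939 and 0 CPM in the STAT3 libraries. Traf1 was higher in all Y640F libraries, and replicate 1 was the highest of them (log2 fold change 5.38 ± 0.67, adjusted p = 7.87e-05). Cxcl2 is given with the chemokines, and Il1b, the interleukin 1 beta gene, had 44.1, 27.2 and 30.5 CPM in the Y640F libraries, against 3.38, 3.29 and 3.67 CPM in the STAT3 libraries. No STAT3 library had as much Il1b RNA as any Y640F library (log2 fold change 3.31 ± 0.19, adjusted p = 6.83e-07). Tnip3 (log2 fold change 2.78 ± 0.46), Tnf (log2 fold change 2.46 ± 0.20) and the inflammasome sensor gene Nlrp3 (log2 fold change 2.20 ± 0.30) followed. The subunit genes Relb (log2 fold change 1.89 ± 0.31) and Nfkb2 (1.80 ± 0.22), which serve the non-canonical arm, were called higher, and the canonical subunit gene Rela (0.43 ± 0.05) was not. These 3 were named after their values were seen. The summed level of the list was 2173 to 3047 CPM in the Y640F libraries, 965 to 1286 CPM in the STAT3 libraries and 952 to 994 CPM in the empty vector libraries. Without Y640F replicate 1, 17 were called higher.

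Many chemokines and chemokine receptors were higher too. Of the chemokines, 7 of 12 tested members were called higher and 3 lower (median 1.85). These are 58.3% and 25%, against 8.11% and 6.09% of all tested genes. Cxcl2, a neutrophil attractant, had 16, 6.34 and 9.06 CPM in the Y640F libraries, against 0.241, 0.798 and 0.102 CPM in the STAT3 libraries. Cxcl2 was higher with Y640F, without overlap of the libraries (log2 fold change 4.46 ± 0.57, adjusted p = 9.13e-05). The monocyte attractant Ccl2 had 5.68 CPM with Y640F against 0.467 CPM with STAT3 (log2 fold change 3.61 ± 0.29), and the macrophage chemokines Ccl4 (log2 fold change 4.06 ± 0.46) and Ccl3 (log2 fold change 2.99 ± 0.25) likewise had several times more RNA. The 3 called lower were the platelet chemokines Pf4 (log2 fold change −1.52 ± 0.14) and Ppbp (log2 fold change −1.72 ± 0.41) and the membrane-bound Cx3cl1 (log2 fold change −1.18 ± 0.35). Of the chemokine receptors, 6 of 9 tested members (66.7%) were called higher and 0 lower (median 1.38). Among those higher were Cx3cr1, Ccr1, Ccr2, Ccrl2 and the neutrophil receptor Cxcr2. Cx3cr1, which marks monocytes, had 105, 47.6 and 50.8 CPM in the Y640F libraries, against 3.05, 5.21 and 2.65 CPM in the STAT3 libraries. Cx3cr1 was higher in each Y640F library than in any STAT3 library, and replicate 1 was the highest of them (log2 fold change 4.12 ± 0.35, adjusted p = 7.05e-06). Ccr1 had 89.3, 67.1 and 66.3 CPM in the Y640F libraries, against 9.97, 10.4 and 8.66 CPM in the STAT3 libraries. Ccr1 values were higher in all 3 Y640F libraries (log2 fold change 2.92 ± 0.14, adjusted p = 1.79e-07). Ccr2 had 265, 230.4 and 231 CPM in the Y640F libraries, against 80.1, 106 and 84.7 CPM in the STAT3 libraries. The groups of Ccr2 values did not overlap, Y640F being higher (log2 fold change 1.42 ± 0.11, adjusted p = 2.81e-06). The empty vector libraries, at 251, 229.8 and 212 CPM, reached the Y640F level.

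Cytokine genes included the macrophage growth factor itself. Of the cytokines and TNF-family ligands, 7 of 18 tested members were called higher and 1 lower (median 0.58). These are 38.9% and 5.56%, against 8.11% and 6.09% of all tested genes. Csf1, macrophage colony-stimulating factor, had 678, 449 and 409.7 CPM in the Y640F libraries, against 23.7, 41.7 and 18.2 CPM in the STAT3 libraries and 20.1, 19.4 and 17.8 CPM in the empty vector libraries. Csf1 was higher in all Y640F libraries (log2 fold change 4.14 ± 0.28, adjusted p = 1.43e-06). The ligand gene Csf1 and its receptor gene Csf1r were thus both higher with Y640F. Il1rn, the interleukin 1 receptor antagonist, had 87.6, 22.3 and 19.7 CPM in the Y640F libraries, against 1.29, 2.91 and 1.12 CPM in the STAT3 libraries. Il1rn was higher in each Y640F library than in any STAT3 library, and replicate 1 was the highest of them (log2 fold change 4.43 ± 0.67, adjusted p = 0.000272). Il15 was called lower (log2 fold change −1.25 ± 0.10), and a second member was lower without Y640F replicate 1, STAT3 replicate 2 or STAT3 replicate 3. Of the inflammasome and interleukin 1 receptor genes, 10 of 24 tested members (41.7%) were called higher and 2 (8.33%) lower (median 0.31). Il1r2, the decoy receptor for interleukin 1, had 59.4, 65.4 and 76.1 CPM in the Y640F libraries, against 3.7, 2.39 and 1.22 CPM in the STAT3 libraries. Il1r2 was higher with Y640F, without overlap of the libraries (log2 fold change 4.74 ± 0.21, adjusted p = 1.27e-07). Il1r1, Il1b and Il1rn, described above, are the signalling receptor, a ligand and the antagonist of the same system.

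Interferon-stimulated genes were partly higher. Of 39 tested, 13 (33.3%) were called higher and 1 (2.56%) lower (median 0.60), against 8.11% and 6.09% of all tested genes. A second gene was lower without Y640F replicate 2, STAT3 replicate 1 or STAT3 replicate 3. The oligoadenylate synthetases, which sense double-stranded RNA, were the most prominent. Oas1g had 65 counts over the Y640F libraries and 0 over the STAT3 libraries, at least 18.5-fold higher. Oas2 had 17.1, 14.1 and 14.9 CPM in the Y640F libraries, against 0.964, 1.97 and 1.32 CPM in the STAT3 libraries. Oas2 was higher in each Y640F library than in any STAT3 library (log2 fold change 3.34 ± 0.29, adjusted p = 7.03e-06). Oas3 had 34.6 CPM with Y640F against 4.88 CPM with STAT3 (log2 fold change 2.77 ± 0.21). The membrane antiviral genes Ifitm1 (log2 fold change 3.08 ± 0.13) and Ifitm3 (log2 fold change 2.32 ± 0.14), of which Ifitm3 was chosen after its values were seen, also rose. Further genes called higher were Ifi27l2a, Oas1a, Oasl2, Irf7, Ifit1, Isg15, Xaf1 and Rtp4, at log2 fold changes from 1.24 to 2.75. Usp18, the deconjugase that restrains interferon signalling, was called lower (log2 fold change −1.29 ± 0.23). Antigen presentation genes stayed closer to level: 4 of 29 tested members (13.8%) were called higher and 0 lower (median 0.27). The 4 were Cd274, Gbp5, H2-DMb1 and Cd74. Without Y640F replicate 3 the count was 2, and without STAT3 replicate 3 it was 1.

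With all libraries in the fit, the largest share of higher calls of any list was in genes of the monocyte and macrophage lineage. Of these, 21 of 26 tested members were called higher and 1 lower, with a median log2 fold change of 1.90. The share called higher was 80.8%, against 8.11% of all tested genes. Cd14, the lipopolysaccharide co-receptor, had 239, 125 and 126 CPM in the Y640F libraries, against 14.9, 19.7 and 9.98 CPM in the STAT3 libraries. Cd14 was higher in all Y640F libraries, and replicate 1 was the highest of them (log2 fold change 3.40 ± 0.28, adjusted p = 5.87e-06). Lyz2, the myeloid lysozyme gene, had 7339, 5427 and 5171 CPM in the Y640F libraries, against 1300.5, 1604 and 866 CPM in the STAT3 libraries and 618, 780.2 and 702 CPM in the empty vector libraries. The groups of Lyz2 values did not overlap, Y640F being higher (log2 fold change 2.25 ± 0.21, adjusted p = 1.2e-05). Itgax, the integrin chain CD11c, had 87.5, 18.6 and 24.9 CPM in the Y640F libraries, against 4.66, 6.62 and 3.87 CPM in the STAT3 libraries. Itgax was higher in all Y640F libraries, and replicate 1 was the highest of them (log2 fold change 3.04 ± 0.55, adjusted p = 0.000907). The lysosomal protease gene Ctss, the receptor gene Tlr2 and Cd68, a macrophage marker, were further members called higher. The summed level of the list was 8666 to 12550 CPM in the Y640F libraries, 1819 to 3008 CPM in the STAT3 libraries and 1683 to 2050 CPM in the empty vector libraries. Without Y640F replicate 1, 17 members were called higher, the same number as in the NF-kB list, so the leading place of the monocyte list rested on that library. In bulk RNA, more cells of a type and more RNA per cell cannot be told apart, here and in the lists below.

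Regulators of the myeloid lineages followed in part. Spi1, the gene of PU.1, which drives myeloid fate, had 463, 408 and 394 CPM in the Y640F libraries, against 218, 212 and 195 CPM in the STAT3 libraries. No STAT3 library had as much Spi1 RNA as any Y640F library (log2 fold change 1.01 ± 0.07, adjusted p = 1.46e-06). Cebpb, a factor of emergency granulopoiesis and macrophage activation, had 82.5, 55.9 and 55.4 CPM in the Y640F libraries, against 15.2, 14.9 and 11.8 CPM in the STAT3 libraries. Cebpb was higher with Y640F, without overlap of the libraries (log2 fold change 2.19 ± 0.23, adjusted p = 2.35e-05). The macrophage factor gene Maf was called higher (log2 fold change 1.85 ± 0.30) and was low in both groups. Cebpa had 85.6, 134 and 109 CPM in the Y640F libraries, against 144, 129 and 126 CPM in the STAT3 libraries. The groups overlapped (log2 fold change −0.28 ± 0.13, adjusted p = 0.0789). Irf8, a monocyte and dendritic cell factor, had 16.8, 16.8 and 17.2 CPM in the Y640F libraries, against 7.07, 13 and 4.99 CPM in the STAT3 libraries. It was short of the fold minimum (log2 fold change 0.94 ± 0.27, adjusted p = 0.0137). The monocyte surface gene Ly6c2 was the exception in the list. It had 22.8, 24.5 and 27.7 CPM in the Y640F libraries, against 237, 224 and 116 CPM in the STAT3 libraries. Ly6c2 was lower in each Y640F library than in any STAT3 library (log2 fold change −2.94 ± 0.31, adjusted p = 2.79e-05). Lyz2, Ctss, Tlr2, Cd68, Maf, Irf8, Cebpa, Cebpb, Spi1 and Ly6c2 were named after their values were seen.

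Neutrophil granule genes moved in both directions. Granules form in order as neutrophils mature, first primary granules with myeloperoxidase and elastase, then secondary granules with lactoferrin, then gelatinase granules. Among secondary and gelatinase genes, 14 of 24 tested members (58.3%) were called higher and 4 (16.7%) lower (median 1.22). Of all tested genes 8.11% were higher and 6.09% lower. Mmp8, neutrophil collagenase, had 748, 454 and 513 CPM in the Y640F libraries, against 6.27, 8.64 and 9.47 CPM in the STAT3 libraries. Mmp8 values were higher in all 3 Y640F libraries (log2 fold change 6.14 ± 0.24, adjusted p = 6.89e-08). Mmp9, gelatinase B, had 132, 48.9 and 63.5 CPM in the Y640F libraries, against 4.18, 9.58 and 6.42 CPM in the STAT3 libraries. Mmp9 was higher in each Y640F library than in any STAT3 library, and replicate 1 was the highest of them (log2 fold change 3.53 ± 0.51, adjusted p = 0.00021). Fpr1, a formyl peptide receptor that guides neutrophils to bacteria, had 144, 84.1 and 75.7 CPM in the Y640F libraries, against 1.77, 3.52 and 1.12 CPM in the STAT3 libraries. Fpr1 was higher in all Y640F libraries (log2 fold change 5.39 ± 0.37, adjusted p = 1.58e-06). Its relative Fpr2 was also higher (log2 fold change 2.58 ± 0.27). The acute-phase gene Hp had 2137 CPM with Y640F against 304 CPM with STAT3 (log2 fold change 2.80 ± 0.38). The NADPH oxidase genes Cybb, Ncf1 and Ncf4 were called higher.

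The 4 called lower in that list were proteins stored in secondary granules or expressed with them. Ltf, lactoferrin, had 3, 5.5 and 7.22 CPM in the Y640F libraries, against 147, 91.4 and 53.9 CPM in the STAT3 libraries and 5.49, 37.4 and 21.5 CPM in the empty vector libraries. Ltf was lower in each Y640F library than in any STAT3 library, and replicate 1 was the lowest of them (log2 fold change −4.18 ± 0.60, adjusted p = 0.000208). Ngp, neutrophilic granule protein, had 22.1, 24 and 28.2 CPM in the Y640F libraries, against 606, 385 and 256 CPM in the STAT3 libraries and 24, 106 and 64.8 CPM in the empty vector libraries. Ngp was lower with Y640F, without overlap of the libraries (log2 fold change −4.06 ± 0.47, adjusted p = 4.99e-05). Camp, the cathelicidin gene, had 0.933, 0.388 and 0.678 CPM in the Y640F libraries, against 15.2, 9.25 and 6.01 CPM in the STAT3 libraries. Camp was lower in each Y640F library than in any STAT3 library (log2 fold change −3.92 ± 0.55, adjusted p = 0.000178). Itgb2l, an integrin chain, had 0.8, 1.55 and 2.18 CPM in the Y640F libraries, against 19, 14.6 and 8.86 CPM in the STAT3 libraries. Itgb2l was lower in all Y640F libraries, and replicate 1 was the lowest of them (log2 fold change −3.19 ± 0.48, adjusted p = 0.000273). In each of the 4 the Y640F libraries lay below all STAT3 libraries, and the STAT3 mean lay above the empty vector mean, which was 2.46 CPM for Camp and 2.19 CPM for Itgb2l. Lcn2, another secondary granule gene, had 840.4, 779 and 694 CPM in the Y640F libraries, against 316, 273 and 173 CPM in the STAT3 libraries. The groups of Lcn2 values did not overlap, Y640F being higher (log2 fold change 1.60 ± 0.29, adjusted p = 0.00097). S100a8 (log2 fold change 1.47 ± 0.33) was called higher and its partner S100a9 (log2 fold change 0.85 ± 0.37, adjusted p = 0.0788) was not called. Ncf1, Ncf4, Cybb, Lcn2, S100a8 and S100a9 were chosen after their values were seen.

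**Figure D3:**
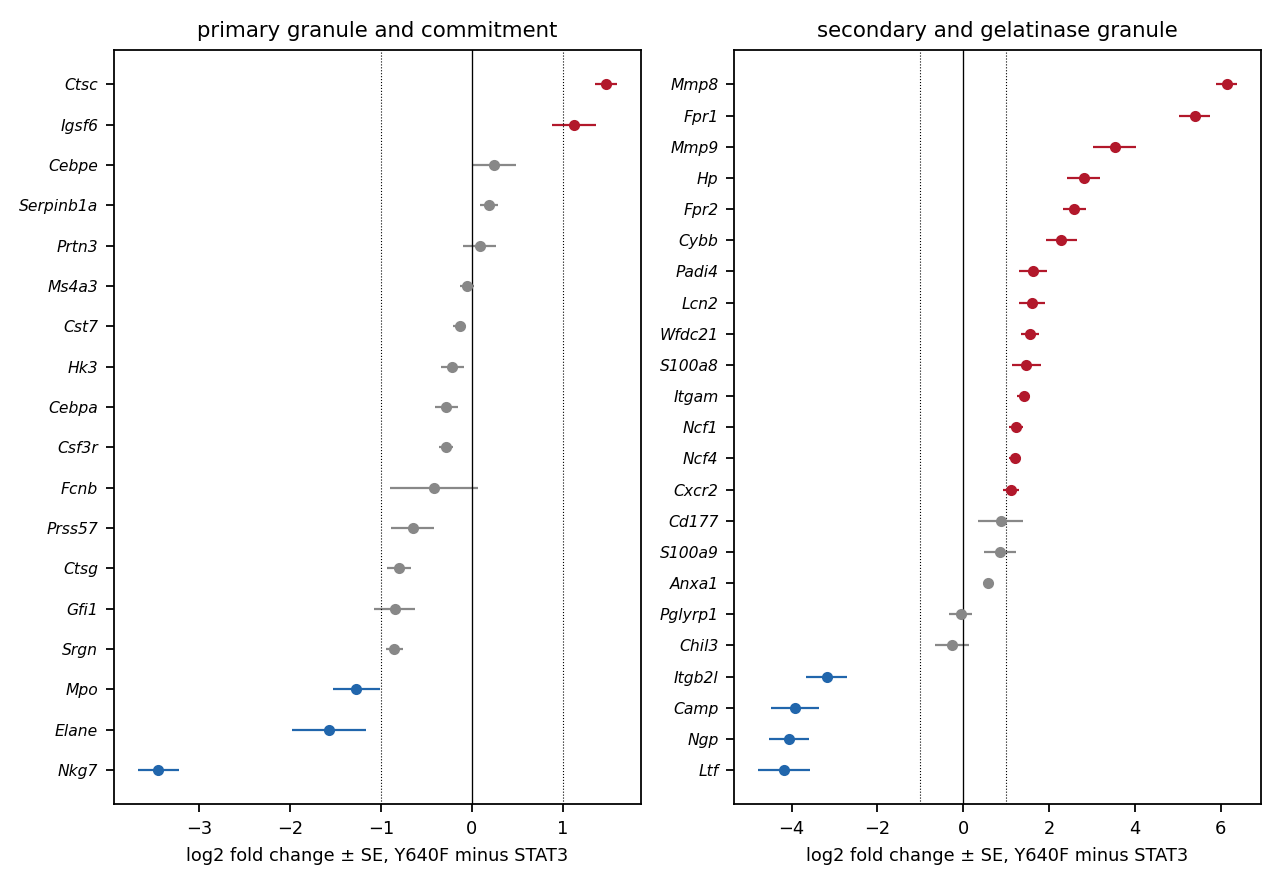
Log2 fold change with its SE, Y640F minus STAT3, for 18 primary granule and commitment genes (left) and 23 of 24 secondary and gelatinase granule genes (right), red where called higher, blue where called lower and grey otherwise; dotted lines mark a fold of 2. Mmp8, Fpr1 and Mmp9 lie at the top right at log2 fold changes from 3.53 to 6.14, and Ltf, Ngp, Camp and Itgb2l at the bottom from −4.18 to −3.19.

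Of the primary granule and commitment genes, 2 of 18 tested members were called higher and 3 lower (median −0.28). These are 11.1% and 16.7%, against 8.11% and 6.09% of all tested genes. Mpo, myeloperoxidase, had 2684, 5795 and 5412 CPM in the Y640F libraries, against 12612, 11390 and 9503 CPM in the STAT3 libraries. Mpo was lower in all Y640F libraries, and replicate 1 was the lowest of them (log2 fold change −1.27 ± 0.26, adjusted p = 0.0018). Elane, neutrophil elastase, had 44.5, 96.2 and 132 CPM in the Y640F libraries, against 446, 199.7 and 172 CPM in the STAT3 libraries. Elane was lower in each Y640F library than in any STAT3 library, and replicate 1 was the lowest of them (log2 fold change −1.57 ± 0.40, adjusted p = 0.00735). The third called lower was Nkg7, described above. Prtn3, proteinase 3, had 852, 1150.5 and 1237 CPM in the Y640F libraries, against 1277, 976 and 805 CPM in the STAT3 libraries. The groups overlapped and it was not called (log2 fold change 0.08 ± 0.18, adjusted p = 0.723). Ms4a3, a granulocyte-monocyte progenitor marker, averaged 811 ± 39.7 CPM with Y640F and 841 ± 66.7 CPM with STAT3 (SD, n = 3 each, log2 fold change −0.05 ± 0.08) and was not called. Ctsc, the cathepsin that activates granule proteases (log2 fold change 1.47 ± 0.12), and Igsf6 (log2 fold change 1.12 ± 0.24) were called higher, the count being 1 without Y640F replicate 1 or STAT3 replicate 3. Csf3r, the granulocyte colony-stimulating factor receptor, had 441, 447 and 423 CPM in the Y640F libraries, against 550.2, 558 and 490.2 CPM in the STAT3 libraries. It was lower by less than the fold minimum (log2 fold change −0.29 ± 0.08, adjusted p = 0.0127). Prtn3, Ms4a3 and Csf3r were named after their values were seen.

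Genes of stem and progenitor identity moved in both directions. Of these, 5 of 37 tested members (13.5%) were called higher and 6 (16.2%) lower, against 8.11% and 6.09% of all tested genes. At the adjusted p alone 17 were lower and 6 higher, and the median was −0.33. Under that rule 3169 of all 12552 tested genes were lower and 3587 higher. Kit, the stem cell factor receptor that the medium's cytokine engages, had 222, 272 and 275 CPM in the Y640F libraries, against 610.4, 643 and 652 CPM in the STAT3 libraries and 816, 679 and 699 CPM in the empty vector libraries. Kit was lower with Y640F, without overlap of the libraries (log2 fold change −1.31 ± 0.09, adjusted p = 2.01e-06). Cd34 had 863, 998 and 1057 CPM in the Y640F libraries, against 1637, 1787 and 1969.6 CPM in the STAT3 libraries. The fall was under the fold minimum (log2 fold change −0.89 ± 0.09, adjusted p = 1.63e-05). Angpt1, a niche ligand also made by progenitors, had 60.4, 93.9 and 100.3 CPM in the Y640F libraries, against 368, 415 and 413 CPM in the STAT3 libraries. Angpt1 was lower in each Y640F library than in any STAT3 library (log2 fold change −2.23 ± 0.18, adjusted p = 4.64e-06). Sox4, a transcription factor of progenitors, had 116, 132 and 124 CPM in the Y640F libraries, against 385, 407 and 433 CPM in the STAT3 libraries. Sox4 values were lower in all 3 Y640F libraries (log2 fold change −1.72 ± 0.07, adjusted p = 1.02e-07). Mycn had 0.386 CPM with Y640F against 2.25 CPM with STAT3 (log2 fold change −2.54 ± 0.39). Tek, the angiopoietin receptor, had 2 counts over the Y640F libraries and 43 over the STAT3 libraries, so that STAT3 counts were 25.2 times Y640F counts after scaling (95% interval from the counts, 6.57 to 215). Flt3, another progenitor receptor, averaged 25.5 ± 3.44 CPM with Y640F and 25.8 ± 4.03 CPM with STAT3 (SD, n = 3 each), a difference smaller than the spread.

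In the opposite direction, Ly6a, the gene of the Sca-1 antigen, had 46.6, 47.6 and 53.5 CPM in the Y640F libraries, against 1.77, 2.35 and 1.83 CPM in the STAT3 libraries and 3, 3.68 and 4.72 CPM in the empty vector libraries. The groups of Ly6a values did not overlap, Y640F being higher (log2 fold change 4.58 ± 0.16, adjusted p = 5.21e-08). Procr, the endothelial protein C receptor used to sort stem cells (log2 fold change 2.70 ± 0.34), Mecom (log2 fold change 1.98 ± 0.28) and Hoxb4 (log2 fold change 1.93 ± 0.24) were also called higher. Among the 11 Hox cluster genes tested 3 (27.3%) were higher, among them Hoxb3 and Hoxb4, and 0 lower. The count of these genes called higher was 5 without Y640F replicate 1 or STAT3 replicate 2. Their summed level was 38.9 to 63.5 CPM in the Y640F libraries, 35 to 38.3 CPM in the STAT3 libraries and 163 to 189 CPM in the empty vector libraries, so both STAT3 forms lay below empty vector.

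Megakaryocyte and platelet genes had the largest share of lower calls of the lineage lists with at least 10 tested members, at 44%. Of 25 tested members 3 (12%) were called higher and 11 lower (median −0.70), against 8.11% and 6.09% of all tested genes. Without Y640F replicate 1, 9 members were lower. Their summed level was 2173 to 2277 CPM in the Y640F libraries, 2816 to 3058 CPM in the STAT3 libraries and 3350 to 4228 CPM in the empty vector libraries. Itgb3, the platelet fibrinogen receptor chain, had 188, 200.1 and 187 CPM in the Y640F libraries, against 545, 586 and 586 CPM in the STAT3 libraries. Itgb3 was lower in all Y640F libraries (log2 fold change −1.58 ± 0.06, adjusted p = 5.51e-08). F2r, a thrombin receptor, had 56, 61.2 and 65.2 CPM in the Y640F libraries, against 183, 211 and 243 CPM in the STAT3 libraries. No STAT3 library had as little F2r RNA as any Y640F library (log2 fold change −1.80 ± 0.12, adjusted p = 1.28e-06). Mmrn1, a platelet granule protein, had 0.467, 0.453 and 0.484 CPM in the Y640F libraries, against 3.46, 3.57 and 2.55 CPM in the STAT3 libraries. Mmrn1 was lower with Y640F, without overlap of the libraries (log2 fold change −2.77 ± 0.29, adjusted p = 2.45e-05). Rab27b, which serves granule release, had 11.3 CPM with Y640F against 36.9 CPM with STAT3 (log2 fold change −1.69 ± 0.15). The exceptions Selp, P-selectin (log2 fold change 3.76 ± 0.42), Vwf (log2 fold change 2.38 ± 0.29) and Cd9 (log2 fold change 1.39 ± 0.18) were higher. The defining glycoprotein genes Gp9 and Gp5 were both called lower (log2 fold changes −1.03 ± 0.22 and −1.02 ± 0.22).

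Mast cell, basophil and eosinophil genes went both ways, 5 of 18 higher and 6 lower (median −0.03). These are 27.8% and 33.3%, against 8.11% and 6.09% of all tested genes. Cpa3, the mast cell carboxypeptidase, had 584, 719 and 838 CPM in the Y640F libraries, against 2485, 2692 and 2519 CPM in the STAT3 libraries. Cpa3 was lower in each Y640F library than in any STAT3 library (log2 fold change −1.85 ± 0.14, adjusted p = 3.1e-06). Hdc, the histamine-forming enzyme, had 124, 183 and 187 CPM in the Y640F libraries, against 532, 433 and 451 CPM in the STAT3 libraries. Hdc values were lower in all 3 Y640F libraries (log2 fold change −1.52 ± 0.15, adjusted p = 1.69e-05). The receptor genes Cd200r3 (log2 fold change −2.12 ± 0.18) and Siglecf (log2 fold change −1.60 ± 0.21) were lower too. In the other direction, the mast cell and basophil protease gene Prss34 had 22.9, 12.3 and 17.2 CPM in the Y640F libraries, against 1.04, 0.188 and 0 CPM in the STAT3 libraries. The groups of Prss34 values did not overlap, Y640F being higher (log2 fold change 5.44 ± 0.50, adjusted p = 1.1e-05). Prg2, the eosinophil major basic protein, had 35.4, 5.24 and 3.63 CPM in the Y640F libraries, against 0.161, 1.22 and 0 CPM in the STAT3 libraries. Prg2 was higher in all Y640F libraries, and replicate 1 was the highest of them (log2 fold change 4.55 ± 1.05, adjusted p = 0.00395). The summed level of the list was 2089 to 2574 CPM in the Y640F libraries, 4712 to 4803 CPM in the STAT3 libraries and 5980 to 8138 CPM in the empty vector libraries.

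Of the other lineage lists, 7 to 14 genes each passed the count filter. Of 33 erythroid genes 14 were tested, with 1 called higher (Car2) and 1 lower, or 7.14% each way against 8.11% and 6.09% of all tested genes. Without Y640F replicate 2 or STAT3 replicate 1, 2 were lower. Of 25 B-lymphoid genes 8 were tested, with 1 (12.5%) higher and 4 (50%) lower. Among them Rag2, the recombinase subunit, had 0 counts over the Y640F libraries against 17 over the STAT3 libraries, at least 6.65-fold lower. Cd72, a B-cell surface protein, had 10.3, 13.4 and 13.2 CPM in the Y640F libraries, against 50.4, 51.2 and 51.2 CPM in the STAT3 libraries. No STAT3 library had as little Cd72 RNA as any Y640F library (log2 fold change −2.04 ± 0.10, adjusted p = 2.46e-07). A second B-lymphoid gene was higher without Y640F replicate 2. Of 36 T and natural killer genes 7 were tested, with Notch1 higher (log2 fold change 1.52 ± 0.09) and Nkg7 and Lat lower. These are 14.3% and 28.6%. Without STAT3 replicate 3, 2 were higher. Of 25 stromal, endothelial and epithelial genes 7 were tested and 4 (57.1%) called higher. The median of this list was 1.64, but −0.22 with no low-count filter, so its direction rested on the filter. Tie1, an endothelial receptor, had 367 counts over the Y640F libraries and 3 over the STAT3 libraries, a scaled ratio of 104 (95% interval from the counts, 35.4 to 508). Cdh1, E-cadherin, had 131 counts with Y640F against 0 with STAT3, at least 37.2-fold higher. Both genes had RNA with empty vector, with means of 1.27 CPM for Tie1 and 1.13 CPM for Cdh1. These lay above the STAT3 means of 0.0836 and 0 CPM and below the Y640F means of 7.11 and 2.52 CPM. The untested members of these 4 lists had at most 41 counts over the 3 libraries of either group.

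**Figure D4:**
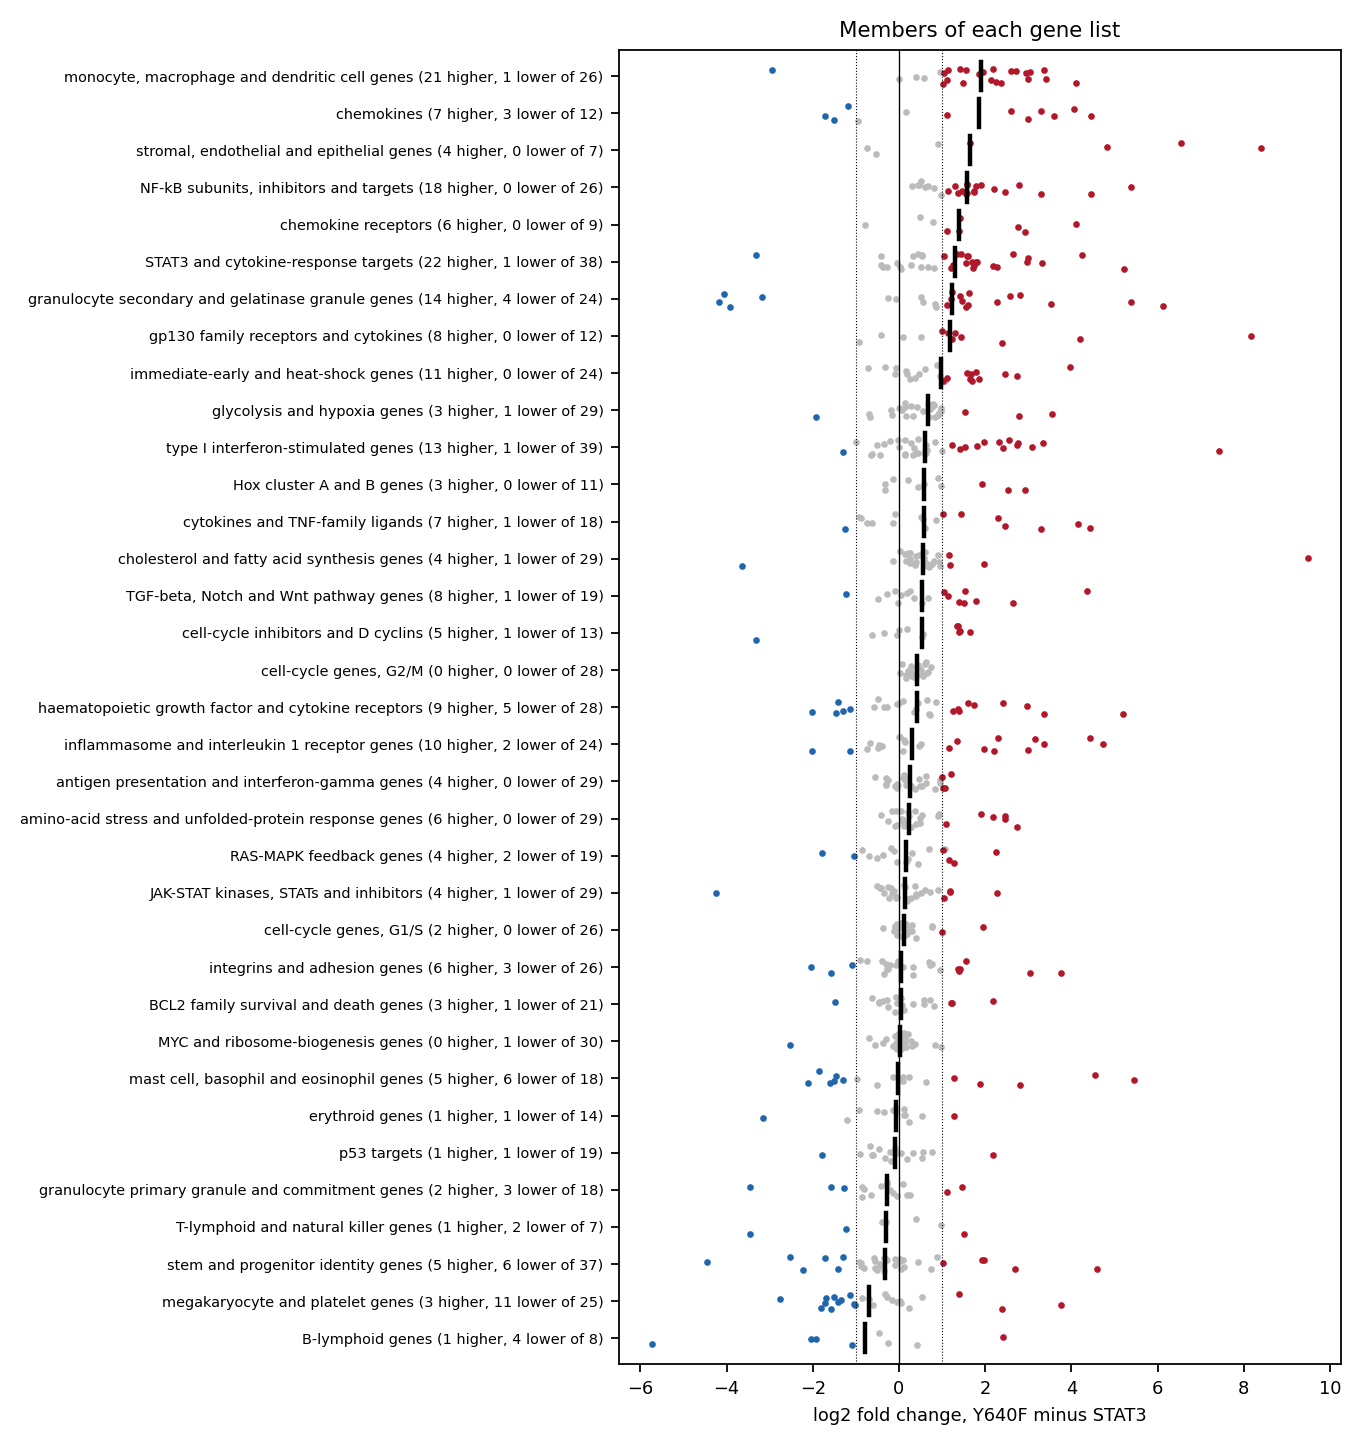
Log2 fold change, Y640F minus STAT3, of the tested members of 35 gene lists with at least 7 tested members (mitochondrially encoded genes left out), ordered by median (black bar); red points were called higher, blue lower, grey neither, and dotted lines mark a fold of 2. Monocyte genes, chemokines, stromal genes and NF-kB genes have medians between 1.57 and 1.90, and B-lymphoid and megakaryocyte genes lie at the bottom at −0.78 and −0.70. With no low-count filter the stromal median was −0.22.

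Of the proliferation lists, the G2/M genes moved together by less than 2-fold. Of 28 G2/M genes 0 were called by edgeR at the fold minimum. At the adjusted p alone 3587 of all 12552 tested genes were higher and 3169 lower. Under that rule 23 of these 28 genes were higher and 0 lower. Their median was 0.42 and their summed level 6019 to 6993 CPM in the Y640F libraries, 4733 to 4863 CPM in the STAT3 libraries and 3945 to 4481 CPM in the empty vector libraries. Of 26 G1/S genes 2 (7.69%) were called higher, E2f2 and Ccne1, against 8.11% of all tested genes. The count was 1 without Y640F replicate 1, STAT3 replicate 2 or STAT3 replicate 3. E2f2, an activator of S-phase genes, had 141, 117 and 129 CPM in the Y640F libraries, against 38.8, 32.9 and 27.6 CPM in the STAT3 libraries. E2f2 was higher with Y640F, without overlap of the libraries (log2 fold change 1.96 ± 0.12, adjusted p = 9.6e-07). Among inhibitors and D cyclins, Cdkn2d (log2 fold change 1.42 ± 0.06), Btg1, Cdkn2c, Cdkn2a and Ccnd1 were higher and Ccnd2 lower. A second member was lower without Y640F replicate 1, Y640F replicate 2 or STAT3 replicate 3. Of 30 MYC and ribosome-biogenesis genes 1 was called, Mycn, and the median was 0.02. A member was called higher without Y640F replicate 2, STAT3 replicate 1 or STAT3 replicate 2.

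Of the BCL2 family, 3 of 21 tested genes were called higher and 1 lower (14.3% and 4.76%, against 8.11% and 6.09% of all tested genes; median 0.04). Bcl2, an inhibitor of mitochondrial death, had 28.7, 35.9 and 36.7 CPM in the Y640F libraries, against 99.3, 86.6 and 97.3 CPM in the STAT3 libraries. Bcl2 was lower in each Y640F library than in any STAT3 library (log2 fold change −1.48 ± 0.10, adjusted p = 2.01e-06). Mcl1, a short-lived inhibitor of the same family, had 1300, 1024 and 1075 CPM in the Y640F libraries, against 476, 518 and 474 CPM in the STAT3 libraries. Mcl1 values were higher in all 3 Y640F libraries (log2 fold change 1.21 ± 0.10, adjusted p = 7.06e-06). The death receptor gene Fas (log2 fold change 2.19 ± 0.24) and the BH3-only gene Bmf (log2 fold change 1.24 ± 0.14) were also higher. Of 19 p53 targets 1 was higher (Fas) and 1 lower, Perp (log2 fold change −1.78 ± 0.20), or 5.26% each way, below the share of all tested genes.

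Metabolic lists had medians above 0 and few calls at the fold minimum. Of 29 glycolysis and hypoxia genes 3 (10.3%) were called higher and 1 (3.45%) lower, near the 8.11% and 6.09% of all tested genes. Their median was 0.68, and 19 were higher at the adjusted p alone, against 3587 of all 12552 tested genes. The count called higher was 5, 6 and 5 without Y640F replicate 2, Y640F replicate 3 and STAT3 replicate 2. Slc16a3, a lactate exporter, had 264, 165 and 150.0 CPM in the Y640F libraries, against 17.4, 18.1 and 13.3 CPM in the STAT3 libraries. The groups of Slc16a3 values did not overlap, Y640F being higher (log2 fold change 3.54 ± 0.21, adjusted p = 7.42e-07). Aldoc had 86.3 CPM with Y640F against 12.4 CPM with STAT3 (log2 fold change 2.79 ± 0.21), a glycolytic enzyme gene. Of the glucose transporters, Slc2a1 was higher (log2 fold change 1.53 ± 0.17) and Slc2a3 lower (log2 fold change −1.91 ± 0.20). Of 29 sterol and fatty acid synthesis genes 4 (13.8%) were higher and 1 (3.45%) lower, with a median of 0.55. Scd1, a fatty acid desaturase, had 6.73, 62.1 and 94.9 CPM in the Y640F libraries, against 0.161, 0.047 and 0 CPM in the STAT3 libraries. It was near 0 in every STAT3 library and lowest in replicate 1 of the Y640F libraries. Over the groups it had 3020 against 3 counts, a scaled ratio of 858 (95% interval from the counts, 293 to 4163).

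Stress and signalling genes included further rises, against 8.11% of all tested genes called higher and 6.09% lower. Of 29 amino-acid stress and unfolded-protein genes 6 (20.7%) were higher and 0 lower (median 0.24), led by Slc7a11. This cystine transporter gene had 409, 125 and 92.8 CPM in the Y640F libraries, against 29.5, 29.7 and 34.1 CPM in the STAT3 libraries. Slc7a11 was higher in all Y640F libraries, and replicate 1 was the highest of them (log2 fold change 2.75 ± 0.53, adjusted p = 0.00137). Atf3, a stress-induced factor, was also higher (log2 fold change 2.47 ± 0.35). Of 24 immediate-early and heat-shock genes 11 (45.8%) were higher and 0 lower (median 0.98). Among them were Egr3 (log2 fold change 3.96 ± 0.74) and Nr4a3 (log2 fold change 2.75 ± 0.45). Of 19 TGF-beta, Notch and Wnt genes 8 (42.1%) were higher and 1 (5.26%) lower. Jag1, a Notch ligand, had 10.3, 2.52 and 3.29 CPM in the Y640F libraries, against 0.161, 0.329 and 0.204 CPM in the STAT3 libraries. Jag1 was higher in each Y640F library than in any STAT3 library, and replicate 1 was the highest of them (log2 fold change 4.37 ± 0.74, adjusted p = 0.000576). Fzd6, a Wnt receptor, was also higher (log2 fold change 2.65 ± 0.23) and the TGF-beta mediator Smad3 was lower (log2 fold change −1.24 ± 0.08). Another member was lower without any 1 of the 3 Y640F libraries or STAT3 replicate 3. The RAS-MAPK feedback genes gave 4 of 19 (21.1%) higher, and 2 higher without Y640F replicate 1. The 2 called lower (10.5%) were Etv4 (log2 fold change −1.79 ± 0.13) and Dusp6 (log2 fold change −1.05 ± 0.12). Of 26 integrin and adhesion genes 6 (23.1%) were higher and 3 (11.5%) lower. Of 7 tested mitochondrially encoded genes 0 were called by edgeR at the fold minimum.

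The largest rises were of genes close to 0 counts with STAT3. Rhoj, a small GTPase of endothelial cells, had 992 counts over the Y640F libraries (11.8, 19.5 and 24.8 CPM) and 0 over the STAT3 libraries, at least 282-fold higher. Col4a1, a basement membrane collagen chain, had 482 against 0 counts, at least 137-fold higher, and Tmem51 had 367 against 0, at least 104-fold higher. Nos2, inducible nitric oxide synthase, had 319 against 1 counts, a scaled ratio of 272 (95% interval from the counts, 48.5 to 10770). Serpine2, a protease inhibitor, had 54.2, 34 and 33.4 CPM in the Y640F libraries, against 0.161, 0.0939 and 0.102 CPM in the STAT3 libraries. Serpine2 was higher with Y640F, without overlap of the libraries (log2 fold change 8.37 ± 0.38, adjusted p = 1.38e-07). Myo1e, a class I myosin of phagocytes, had 46.2, 22.5 and 28 CPM in the Y640F libraries, against 0.321, 0 and 0.204 CPM in the STAT3 libraries. Myo1e was higher in each Y640F library than in any STAT3 library (log2 fold change 7.78 ± 0.51, adjusted p = 1.27e-06). These intervals and floors cover counting error only.

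Among genes lower with Y640F, the largest falls reached genes close to 0 counts with Y640F. Defb1, a beta-defensin, had 0.6, 0.583 and 0.484 CPM in the Y640F libraries, against 114, 146 and 146 CPM in the STAT3 libraries and 25.5, 26.6 and 27.5 CPM in the empty vector libraries. Defb1 values were lower in all 3 Y640F libraries (log2 fold change −7.92 ± 0.16, adjusted p = 9.32e-10). Kcnd3, a potassium channel gene, had 0, 0.0647 and 0.194 CPM in the Y640F libraries, against 16.8, 16.5 and 15.5 CPM in the STAT3 libraries. Kcnd3 was lower in each Y640F library than in any STAT3 library, and replicate 1 was the lowest of them (log2 fold change −7.28 ± 0.31, adjusted p = 1.02e-07). Ephb2, an ephrin receptor, had 0.133, 0.324 and 0.339 CPM in the Y640F libraries, against 28.4, 28.8 and 39.2 CPM in the STAT3 libraries. Ephb2 was lower in all Y640F libraries, and replicate 1 was the lowest of them (log2 fold change −6.83 ± 0.27, adjusted p = 6.89e-08). The transporter genes Slc36a4 (log2 fold change −6.06 ± 0.24) and Slc14a1, the urea transporter of red cells (log2 fold change −5.34 ± 0.27), and Nat8l (log2 fold change −4.95 ± 0.22) were also among the 8 smallest, as was Uty. In all of these the 3 Y640F libraries lay below all 3 STAT3 libraries.

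Uty had the largest fall of the 7 Y-linked genes tested, of which 2 were called lower and all lay below 0 (median −0.47). It had 0.333, 0.324 and 0.145 CPM in the Y640F libraries, against 25.6, 22.1 and 23.8 CPM in the STAT3 libraries and 2.2, 0.877 and 0.966 CPM in the empty vector libraries. No STAT3 library had as little Uty RNA as any Y640F library (log2 fold change −6.50 ± 0.32, adjusted p = 2.39e-07). The other Y-linked genes of the list had log2 fold changes of −0.13 ± 0.06 for Ddx3y, −0.15 ± 0.05 for Eif2s3y and −0.51 ± 0.06 for Kdm5d. The second Y-linked gene called lower, Gm28649, was low in both groups (log2 fold change −2.32 ± 0.38) and was named after its values were seen. Over chromosomes 1 to 19 and X, the median log2 fold change ran from −0.12 on chromosome 1 to 0.07 on chromosome 15, with 39% of 761 tested chromosome 1 genes above 0.

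The study ran the same pair of vectors in a second progenitor line, HPC7, labelled strain 129SV for RNA, and a test of the difference between the lines used all 18 RNA libraries, which share none between the pairs. The file headers put the HPCLSK and HPC7 libraries on different flowcells, so line, strain and sequencing run cannot be told apart. Of 13891 genes tested 1734 (12.5%) had a change that differed between the lines at an adjusted p under 0.05 and by at least 1 on the log2 scale, 623 of them more positive in HPCLSK and 1111 more negative. At the adjusted p alone, 6289 (45.3%) differed. HPC7 alone had 1001 of 12683 genes called (7.89%). Over 11338 genes tested throughout, 616 were called higher in HPCLSK and 576 in HPC7. The 174 higher in both are 28.2% of the HPCLSK and 30.2% of the HPC7 list. Called lower were 544 in HPCLSK and 154 in HPC7, and the 39 lower in both are 7.17% of the HPCLSK and 25.3% of the HPC7 list. Another 19 were higher in HPCLSK and lower in HPC7, and 60 lower in HPCLSK and higher in HPC7. Of the 1160 genes called in HPCLSK, 754 (65%) also passed the test of the difference. These genes were selected for a large change in HPCLSK, which is 1 term of that difference. Part of the share therefore follows from the selection, and it is no measure of how far the lines differ.

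The 2 lines had opposite ratios of Stat3 RNA. Its log2 fold change was 1.67 ± 0.06 in HPCLSK and −0.56 ± 0.04 in HPC7, a difference of 2.24 ± 0.07, adjusted p = 6.14e-14. Socs3 changed by 2.28 ± 0.14 in HPCLSK and by 3.25 ± 0.11 in HPC7 (difference −0.95 ± 0.21, adjusted p = 0.000956). Bcl3 changed by 1.75 ± 0.10 in HPCLSK and by 3.72 ± 0.16 in HPC7 (difference −1.96 ± 0.20, adjusted p = 3.53e-07). Pim1 changed by 0.69 ± 0.11 in HPCLSK and by 2.37 ± 0.05 in HPC7 (difference −1.67 ± 0.13, adjusted p = 1.21e-08). All 3 changes were smaller in HPCLSK, that of Socs3 by less than the minimum difference of 1. Csf1 had log2 fold changes of 4.14 ± 0.28 in HPCLSK and 3.66 ± 0.19 in HPC7 (difference 0.48 ± 0.48, adjusted p = 0.455). Ly6a had 4.58 ± 0.16 in HPCLSK and 4.79 ± 0.26 in HPC7 (difference −0.18 ± 0.37, adjusted p = 0.747), and Jag1 had 4.37 ± 0.74 in HPCLSK and 2.77 ± 0.16 in HPC7 (difference 1.61 ± 0.84, adjusted p = 0.131). These 3 differences did not pass the threshold. Il1r2 (4.74 ± 0.21 in HPCLSK against 1.66 ± 0.15 in HPC7) and Traf1 (5.38 ± 0.67 in HPCLSK against 1.40 ± 0.28 in HPC7) rose more in HPCLSK. Socs2 fell in HPCLSK and had 0.00 ± 0.10 in HPC7. Uty, which fell in HPCLSK, had a log2 fold change of 3.58 ± 0.09 in HPC7.

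**Figure D5:**
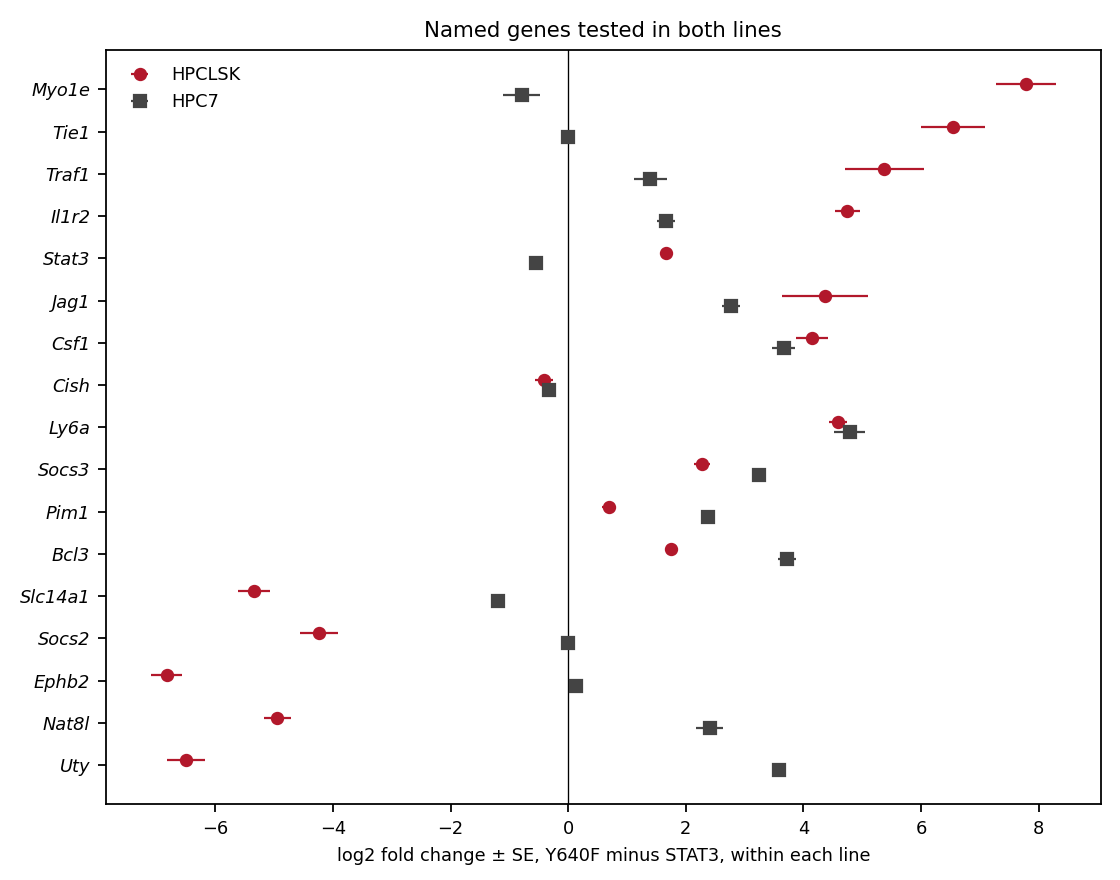
Log2 fold change with its SE, Y640F minus STAT3, of 17 named genes tested in both lines, HPCLSK as red circles and HPC7 as dark squares, ordered by the difference between the lines. For Csf1, Ly6a, Jag1 and Cish the difference between the lines did not reach an adjusted p under 0.05 in edgeR's test. Stat3, Uty and Nat8l lie on opposite sides of 0, with an adjusted p under 0.05 within each line.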

How the data were processed

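RNA of 18 libraries in 6 groups of 3 was sequenced, and 12 chromatin samples are not used here. The deposited values are whole-number counts per gene, made with featureCounts 1.5.1 on STAR alignments with reverse-strand counting over exons, per the file headers, against the GENCODE M13 annotation (GRCm38) that the headers name. STAR and Trimmomatic stand in the submitters' processing notes, without versions in the sources used here. The series text and the sample protocol name different library kits, so the kit is uncertain. Genes were named by Ensembl ID, with 310 of 50686 left unnamed.

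From these counts, edgeR 4.0.16 (R 4.3.3) fitted a quasi-likelihood model to the 9 HPCLSK libraries (6 residual degrees of freedom) after filterByExpr and TMM scaling, with Benjamini-Hochberg adjustment over all tested genes. SEs were derived from the log2 fold change and the F statistic, and ± after a log2 fold change is that SE. A model of all 18 libraries tested the difference between the lines. The scripts recovered known changes in simulated counts, with recovery required only at folds above the fold minimum. The simulation gave every gene the same spread and changed only genes above a minimum count. It thus checks the code, and not the calls of low genes or of genes with uneven replicates. Alternatives were DESeq2 1.42.0, other scalings, filters, thresholds and sets of libraries, a replicate block, and leaving out each library. Genes with 0 counts in a group are given as lower bounds against 3 counts over the group, and those with 1 to 3 counts as ratios with exact binomial 95% intervals. Both cover counting error only.

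Members and gene lists were chosen with earlier results of these data known. Named genes are Stat3, Socs3, Pim1, Bcl3 and Cish, the 8 largest and 8 smallest changes among called genes at 5 CPM or more without overlap, and up to 2 called members per list. Up to 4 further called members by size of change illustrate a list, lists of at most 16 and the JAK-STAT genes may be given in full, and any other gene was chosen after its values were seen. Some genes that these rules name are not reported here, though counts include them. Promoter windows are from RefSeq on GRCm38.p6.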

Additional observations from a re-analysis of the deposited data

Results flagged for a closer look

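For 17 of 43 named genes the change of Y640F against STAT3 differed between HPCLSK and HPC7 in edgeR's test of that difference (adjusted p under 0.05), and 16 are given. All values are HPCLSK minus HPC7 on the log2 scale, and these 17 are 39.5% of the named genes, against 45.3% of all 13891 genes tested under the same rule. Of the 43 named genes, 25 did not pass the count filter in HPC7 alone. For some of these, such as Mmp8 (difference 6.13, SE 22227) and Defb1 (−7.93, SE 16478), the SE far exceeded the difference. The test could not decide for such genes. The shares therefore cannot tell whether named genes differed between the lines less often than other genes. The line, its strain and the sequencing run cannot be told apart in any of them.

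For Stat3 and genes of its pathway, the difference was 2.24 for Stat3, −0.95 for Socs3, −1.67 for Pim1, −1.96 for Bcl3 and −4.24 for Socs2. The Stat3 difference was positive and those of the other 4 genes negative. Among inflammatory genes the difference was 4.03 for Traf1, 3.10 for Il1r2 and 4.66 for Cxcl2, all more positive in HPCLSK. The differences were 10.50 for Rhoj, 8.61 for Myo1e, 9.38 for Nos2 and 6.62 for Tie1, all near 0 with STAT3 in HPCLSK. They were −6.96 for Ephb2, −10.08 for Uty, −4.13 for Slc14a1 and −7.34 for Nat8l. Uty and Nat8l were called lower in HPCLSK while their log2 fold changes in HPC7 were 3.58 ± 0.09 and 2.40 ± 0.23. Rhoj, Nos2 and Cxcl2 did not pass the count filter in HPC7 alone, and fitted differences of genes near 0 depend on the prior count added by the model.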

How the results depend on the processing

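The count of genes called in HPCLSK (1783, of which 1018 higher and 765 lower) depended on the rule. It was 924 (615 higher, 309 lower) with glmTreat against a 2-fold change, 6756 (3587 higher, 3169 lower) with no fold minimum and 982 (614 higher, 368 lower) over genes with at least 5 CPM in 3 libraries. By construction, the first needs stronger evidence, the second drops a condition and the third tests fewer genes. It stayed between 1687 and 2225 with the 6 libraries alone, with all 18, with DESeq2 size factors, with library totals, with DESeq2's Wald test (1722) and with no filter. Leaving out 1 library at a time gave 1713 to 1893 (941 to 1064 higher, 751 to 829 lower). With library totals, 50.5% of calls were higher, against 57.1%. The count of genes whose change differed between the lines was 1734, or 1142 at 5 CPM or more.

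Of the 43 named genes, 41 kept their direction and side of the threshold under up to 17 alternatives, Pim1 and Cish passing only with no fold minimum. The line difference of Cish ran from −0.20 to 0.0025, the last without STAT3 replicate 2. Some list medians turned: T and natural killer genes to 0.52 and stromal genes to −0.22 with no low-count filter, and RAS-MAPK genes to −0.093 at 5 CPM or more. The cause was not tested.

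Replicate numbers did not pair the libraries, since the same-number correlations of deviations ran from −0.19 to 0.10. With a replicate block, 1761 genes were called (1007 higher, 754 lower), and 1675 line differences.

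Limits are the technical replicates, the unequal Stat3 RNA of the groups and depths under which 3 counts are up to 0.315 CPM.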

Other observations

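The genes below lie outside the gene lists and were chosen after their values were seen, so they describe single genes and no group. Ctsl, a lysosomal protease, averaged 240.5 ± 56.8 CPM with Y640F against 19.9 ± 1.11 CPM with STAT3 (SD, n = 3 each, here and below; log2 fold change 3.58 ± 0.15). Ctsb averaged 1448 ± 518 CPM with Y640F against 361 ± 59.8 CPM with STAT3, and the proton pump genes Atp6v1a, Atp6v1b2 and Tcirg1 were called higher at log2 fold changes of 1.07 ± 0.12, 1.22 ± 0.14 and 1.10 ± 0.10. Fth1, the ferritin heavy chain, averaged 2859 ± 1533 CPM with Y640F against 928 ± 113 CPM with STAT3. Lpl, lipoprotein lipase, averaged 223 ± 97 CPM with Y640F against 4.05 ± 2.18 CPM with STAT3 (log2 fold change 5.67 ± 0.37), the endocytic receptor Lrp1 586 ± 78.9 CPM with Y640F against 55.6 ± 8.49 CPM with STAT3, and the cholesterol exporter Abca1 53.4 ± 12.3 CPM with Y640F against 3.61 ± 0.87 CPM with STAT3. In these genes the Y640F libraries lay above all STAT3 libraries.

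Spp1, osteopontin, was also called higher and averaged 913 ± 207 CPM with Y640F against 33.9 ± 20 CPM with STAT3 and 3.8 CPM with empty vector. Tgfbi averaged 673 ± 72.2 CPM with Y640F against 9.64 ± 0.732 CPM with STAT3 (log2 fold change 6.11 ± 0.16), Vcan, versican, 120.4 ± 3.89 CPM with Y640F against 2.6 ± 0.866 CPM with STAT3 (log2 fold change 5.44 ± 0.23), and the lipid receptor Trem2 65.4 ± 28.8 CPM with Y640F against 5.8 ± 0.477 CPM with STAT3. Acod1, which makes itaconate, averaged 132 ± 65.2 CPM with Y640F against 7.78 ± 4.51 CPM with STAT3. Mmp12 had 289.8, 41.7 and 47.2 CPM in the Y640F libraries, against 18.2, 8.97 and 7.84 CPM in the STAT3 libraries, with replicate 1 of Y640F well above the others. Among abundant genes called lower, the actin-severing protein gene Scin averaged 267 ± 47.3 CPM with Y640F against 1099.7 ± 90.9 CPM with STAT3 and the epithelial mucin gene Muc13 298 ± 96.8 CPM with Y640F against 711 ± 38.7 CPM with STAT3, with empty vector means of 1524 and 814 CPM.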
